A study of Bos taurus with 20 samples.

Results

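PRSS2, HRG, A1BG, A1CF and RBP4 are 5 genes whose textbook sites of expression lie outside the ovary, and their transcripts were followed here in bovine oocytes and in the somatic cells of the ovarian follicle. They were found on the array by the gene name that the scanner files give each probe, and they are 5 of 22550 genes and transcripts measured. The genes were picked with earlier results of these data known, because their signal was seen in oocytes, so the oocyte values below are given as a description, with no test. The samples came from bovine ovaries collected after slaughter, and the array data, made earlier, were drawn on by a study of the proteins of follicular fluid vesicles and of the follicular cells that express their genes. Gene expression was measured on 20 one-colour Agilent arrays, 4 for each of 5 groups. From antral follicles of 3 to 6 mm the groups were theca cells (TH) scraped from the follicle wall, granulosa cells (GC), cumulus cells (CC) of immature cumulus-oocyte complexes and immature oocytes. The fifth group held CC that were detached from the complex after in vitro maturation (IVM) for 4 h. No group was treated otherwise, and the labels number 4 replicates in each group without saying how many animals each array stands for, so the p-values measure the spread between these arrays.

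Trypsinogens are made by the acinar cells of the pancreas, are stored as inactive precursors and become active in the gut, where they digest protein and activate the other pancreatic enzymes. Hepatocytes secrete many plasma proteins, among them histidine-rich glycoprotein (HRG), which binds plasminogen, heparan sulfate and fibrinogen, alpha-1-B glycoprotein (A1BG), a plasma protein of the immunoglobulin superfamily, and retinol binding protein 4 (RBP4), which carries retinol from the liver to other tissues in a complex with transthyretin. APOBEC1 complementation factor (A1CF) is an RNA-binding protein of liver and intestine that works inside the cell with the cytidine deaminase APOBEC1 on the apolipoprotein B messenger. PRSS2 is therefore a pancreatic gene and A1CF is not secreted, and a heading of secreted liver genes covers only HRG, A1BG and RBP4 of the 5. In the ovary, growing oocytes store large amounts of messenger RNA for later use, and they are linked to the surrounding CC by fine cell processes.

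Each gene was read by 60-base probes whose letters are printed because the readings below turn on which probe is read. On the UMD 3.1 assembly, to which the array design refers, the files place PRSS2 at chr4:106887844-106891620, HRG at chr1:81127291-81135756, A1BG at chr18:65826618-65830778, A1CF at chr26:8523899-8580001 and RBP4 at chr26:14940551-14946750. The strand and the exon or UTR under each probe were not determined, since no genome of that build was used. PRSS2 had 4 spots, 2 for each of 2 probes, and the other genes had 2 spots, each a different probe, which makes 12 spots in all. The probe letters below are as the files give them, and capitals mark the stretch that the probes of 1 gene share end to end, 46 bases for HRG and 36 bases for A1CF.
PRSS2-a: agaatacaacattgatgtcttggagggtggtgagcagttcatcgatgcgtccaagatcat
PRSS2-b: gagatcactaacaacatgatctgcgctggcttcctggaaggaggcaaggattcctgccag
HRG-a: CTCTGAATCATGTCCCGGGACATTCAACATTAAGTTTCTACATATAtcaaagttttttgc
HRG-b: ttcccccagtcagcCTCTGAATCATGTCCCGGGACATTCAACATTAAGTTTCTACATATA
A1BG-a: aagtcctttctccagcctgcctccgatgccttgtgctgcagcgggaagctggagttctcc
A1CF-a: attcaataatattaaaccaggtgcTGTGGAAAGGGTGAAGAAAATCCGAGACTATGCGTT
A1CF-b: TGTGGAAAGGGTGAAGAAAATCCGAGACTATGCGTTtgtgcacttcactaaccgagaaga
RBP4-a: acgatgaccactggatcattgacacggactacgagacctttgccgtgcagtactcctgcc

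The HRG probes and the A1CF probes therefore read nearly the same stretch of their transcript and are not independent readings, whereas the PRSS2 probes share no such stretch. The longest run of letters that any of these probes had in common with a probe of another gene on the array, on either strand, was 15 bases. Whether another trypsinogen transcript that has no probe of its own could bind the PRSS2 probes was not tested. The other probes of A1BG and RBP4, named A1BG-b and RBP4-b below, are described by their values only.

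Values are log2 of the processed intensity of a spot minus the 75th percentile of its array, and a gene value is the median over the spots of the gene. The scanner software marks a spot as well above background when its signal clears the local background, and a gene counted as above background on an array when any of its spots did. Over the arrays, 49.3% to 68.8% of the probes were above background, with the lowest share in oocyte replicate 2, and no spot was saturated. The median 75th percentile was 1746 intensity units in oocytes and between 333 and 585 in the other groups. The markers of the labelled cells fell as labelled, and all 7 oocyte markers examined (GDF9, BMP15, ZP2, ZP3, ZP4, NLRP5 and DAZL) were higher in oocytes. In such bulk samples, fewer cells of a type and less RNA per cell cannot be told apart.

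**Figure D1:**
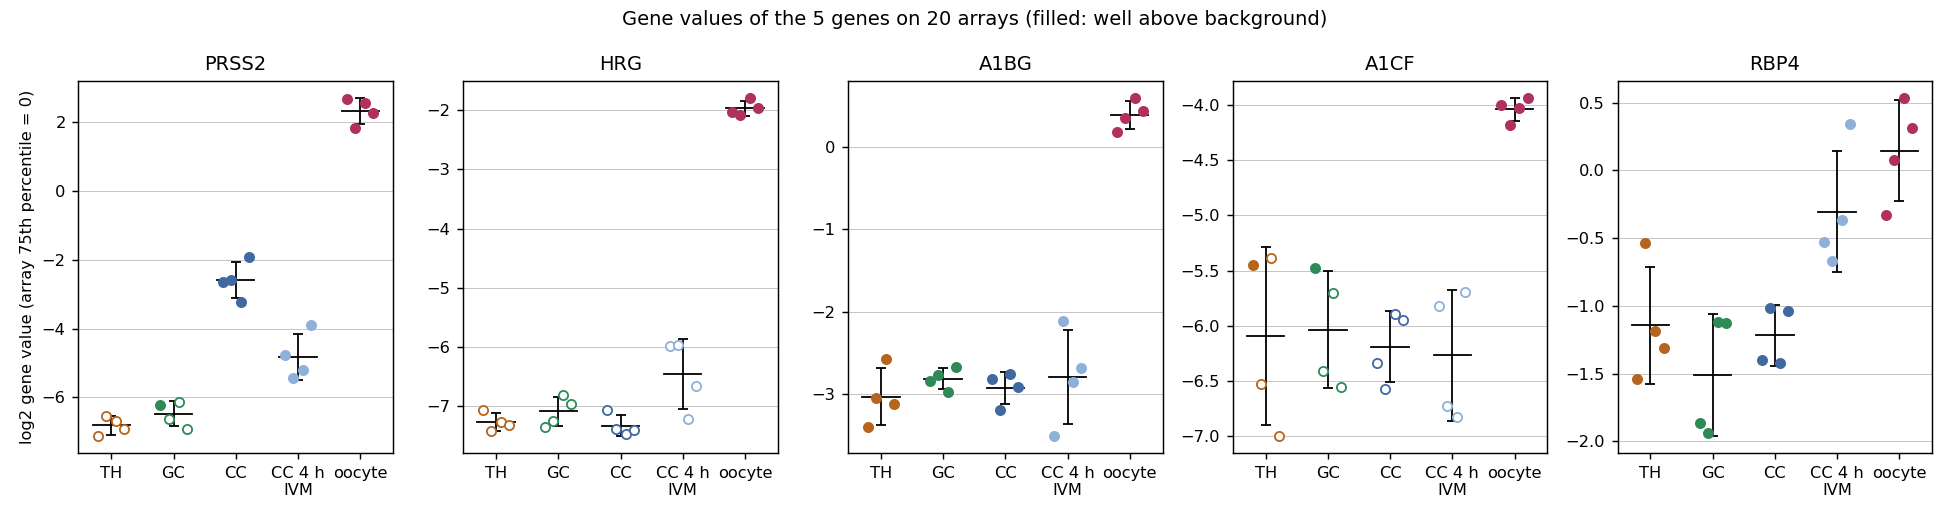
Each panel plots the log2 gene value of 1 gene (y axis, array 75th percentile at 0) on the 20 arrays, grouped on the x axis. Points are arrays, filled where a probe of the gene was well above background, and bars are the group mean and SD (n = 4). The oocyte points lie above all others for PRSS2, HRG, A1BG and A1CF and overlap CC after IVM for RBP4, and PRSS2 is the gene with a middle level in CC.

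All 5 genes were above background on the 4 oocyte arrays, as were 54.1% of all genes. For each of the 5, the 4 oocyte arrays lay above all 12 arrays of TH, GC and CC, which was the case for 25.3% of all genes. For PRSS2, HRG, A1BG and A1CF they also lay above the 4 arrays of CC after IVM, as for 21.9% of all genes. These shares stand beside the counts for scale only, since the genes were chosen on that contrast. On the log2 scale, the differences between the oocyte mean and the mean of the 3 somatic groups taken before IVM were 7.62 ± 0.22 (SE) for PRSS2, 5.27 ± 0.13 for HRG, 3.32 ± 0.15 for A1BG, 2.06 ± 0.28 for A1CF and 1.44 ± 0.22 for RBP4, against a median of -0.52 over all genes, of which 71.3% were called in either direction by limma. For HRG no TH, GC or CC array was above background, so its difference is set by the background reading of those arrays and its size is given by the bounds further on, and the differences of PRSS2 and A1CF rest mainly on background readings in TH and GC, for A1CF also in CC. Within the slide of replicates 1 and 2 they were 7.54, 5.20, 3.28, 2.03 and 1.25, and within the slide of replicates 3 and 4 they were 7.70, 5.33, 3.36, 2.10 and 1.62, in the same order.

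PRSS2, the trypsinogen gene, had the widest range over the groups among the 5 genes. Its gene values were 2.67, 1.82, 2.55 and 2.26 in oocytes. In CC they were -2.65, -2.59, -3.21 and -1.93, and after 4 h of IVM they were -4.76, -5.43, -5.22 and -3.91. In GC they were -6.22, -6.62, -6.14 and -6.91, and in TH they were -7.14, -6.54, -6.67 and -6.91. Oocytes, CC and CC after IVM thus formed 3 separate bands with no overlap, all 3 above background on every array, while GC were above background on 1 of 4 arrays and TH on none. The oocyte level was 30.3-fold that of CC and 143-fold that of CC after IVM. The ratio to CC after IVM rests in part on background readings, since PRSS2-a was above background on none of those arrays. It was 239-fold by PRSS2-b and at least 37.5-fold and 35.8-fold by the 2 spots of PRSS2-a. Against TH the oocyte level was at least 196-fold higher. Against GC the ratio of the means was 444, but only 1 GC array was above background, by 1 of the 4 spots, so that ratio is set mainly by background readings. For the 3 spots with no GC array above background the bounds were at least 45.8-fold and 46.1-fold (PRSS2-a) and at least 584-fold (PRSS2-b). Where a group had no array above background, the ratio was taken against the lowest signal above background on those arrays, or the probe's own signal where that was higher. It is a lower bound under the main background subtraction and scaling only.

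The PRSS2 probes gave the same order of groups. PRSS2-b read 3.94, 4.04, 4.47 and 4.23 in oocytes, -1.43, -1.41, -1.72 and -0.75 in CC, and -3.03, -4.24, -4.31 and -3.34 in CC after IVM. PRSS2-a read 1.44, -0.33, 0.61 and 0.21 in oocytes and -3.87, -3.76, -4.71 and -3.11 in CC, and it was above background on no array of CC after IVM, GC or TH. The oocyte value of PRSS2-a on replicate 2 was the lowest of the 4, which PRSS2-b did not show. The second spot of each probe lay close to the first in oocytes, from -0.33 to 1.36 for PRSS2-a and from 3.89 to 4.44 for PRSS2-b. The oocyte minus somatic difference was 6.44 ± 0.32 (SE) by PRSS2-a and 8.42 by PRSS2-b, so the size of the difference depended on the probe and its direction did not.

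The comparisons among somatic cells were not used to choose the genes and were tested with limma over all 22550 genes. PRSS2 was higher in CC than in TH by 4.22 ± 0.27 (SE) on the log2 scale (limma adjusted p = 1.42e-08), at least 6.46-fold, where 17.4% of all genes were called in the same direction. It was higher in CC than in GC by 3.87 ± 0.27 (limma adjusted p = 8.57e-07), a direction in which 5.27% of all genes were called. Its ratio of the means, 14.7, rests on GC readings that were in the background on 3 of 4 arrays, and the 3 spots with no GC array above background gave at least 2.25-fold and 1.76-fold (PRSS2-a) and at least 13.6-fold (PRSS2-b). TH and GC did not differ past the threshold, with a difference of -0.35 and a 95% interval from -0.93 to 0.23, where 26.3% of all genes were called in either direction. Detection on all 4 CC arrays, on no TH array and on at most 1 GC array was found for 102 genes, 0.452% of all. This pattern was set to the readings of PRSS2 itself, so the share is given for scale only.

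After 4 h of IVM, PRSS2 in CC fell by 2.23 ± 0.37 (SE) on the log2 scale (limma adjusted p = 0.0015, 95% interval -3.07 to -1.40), which was 4.71-fold. This was against a median of 0.37 over all genes and with 15.5% of all genes called lower. The gene value after IVM rests in part on background readings, since PRSS2-a was above background on none of those arrays. The fall was 5.29-fold by PRSS2-b (limma adjusted p = 0.00121 over all probes) and at least 1.84-fold by PRSS2-a. By the second spot of PRSS2-a it was at least 1.36-fold (difference -1.55, limma adjusted p = 0.0339 over all probes), and there the groups overlapped, with replicate 4 after IVM at -4.27 within the CC range of -4.89 to -3.73. All 4 arrays of CC after IVM stood on a slide of their own, so slide and IVM cannot be told apart. The CC arrays were shared by the comparison with TH, with GC and with CC after IVM. These 3 calls held in each of the alternative analyses.

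Markers of the oocyte moved with PRSS2 among the somatic cells. Of the 7 oocyte markers, 5 were higher in CC than in GC and 1 was lower, 5 were higher in CC than in TH, and 4 were lower in CC after IVM than before. The log2 of their summed level ran from -0.81 to 1.60 in CC, from -2.10 to -1.13 in GC, from -1.33 to -0.53 in TH, from -2.50 to -0.75 in CC after IVM and from 7.96 to 8.37 in oocytes. Within CC, the array with the lowest marker level, replicate 3, had the lowest PRSS2 value, and the array with the highest, replicate 4, had the highest. Replicates 1 and 2 of CC were in the other order, with marker levels of 0.43 and -0.11 and PRSS2 values of -2.65 and -2.59. Within CC after IVM, replicate 4 had the highest of both, but the lowest marker level was on replicate 3 and the lowest PRSS2 value on replicate 2. The distance from oocyte to CC was 4.92 for PRSS2 and 6.05 (DAZL) to 9.67 (NLRP5) for the markers, so PRSS2 lay nearer to its oocyte level in CC than each of the 7 did. TH arrays had marker sums above or within the range of CC after IVM. PRSS2 was above background on none of these TH arrays and on all 4 arrays of CC after IVM. Single markers differed in direction between these 2 groups. The mean of ZP2 was -2.17 in TH and -5.14 in CC after IVM, whereas GDF9 was above background on no TH array and on 3 arrays of CC after IVM. The part of oocyte material in the PRSS2 signal of CC was not tested.

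HRG, the plasma protein that binds plasminogen, was above background in oocytes only. Its gene values were -2.03, -2.07, -1.79 and -1.96 in oocytes, a spread of 0.12 (SD, n = 4). They were -7.06, -7.41, -7.27 and -7.31 in TH, -7.35, -7.25, -6.81 and -6.96 in GC, -7.07, -7.39, -7.46 and -7.41 in CC and -5.99, -5.97, -7.21 and -6.66 in CC after IVM. None of these 16 arrays was above background by either probe. Being above background on all oocyte arrays and on no other array was found for 312 genes, 1.38% of all, and with CC after IVM left out of the count for 417, 1.85% of all. The oocyte level was at least 10.0-fold higher than that of TH, 8.39-fold that of GC, 10.9-fold that of CC and 6.87-fold that of CC after IVM, each of these ratios a lower bound under the main processing. Both overlapping probes gave this reading, with -2.16, -2.34, -2.07 and -2.29 by HRG-a and -1.90, -1.81, -1.51 and -1.63 by HRG-b in oocytes. The size depended on the processing. The log2 difference of HRG between oocytes and the somatic mean was 2.75 with the log2 table that the authors deposited. With a background correction by a normal-exponential model it was 1.43.

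Between the somatic groups, no HRG comparison carries a level, since both sides lay in the background. CC after IVM minus CC came out at 0.87 ± 0.29 (SE, limma adjusted p = 0.0345), a value without a fold. Among the 4441 genes that were above background on none of these 8 arrays, 62.1% were called higher after IVM, with a median difference of 0.68, and HRG was among them. TH minus GC (-0.17), TH minus CC (0.07) and GC minus CC (0.24) did not pass the threshold.

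**Figure D2:**
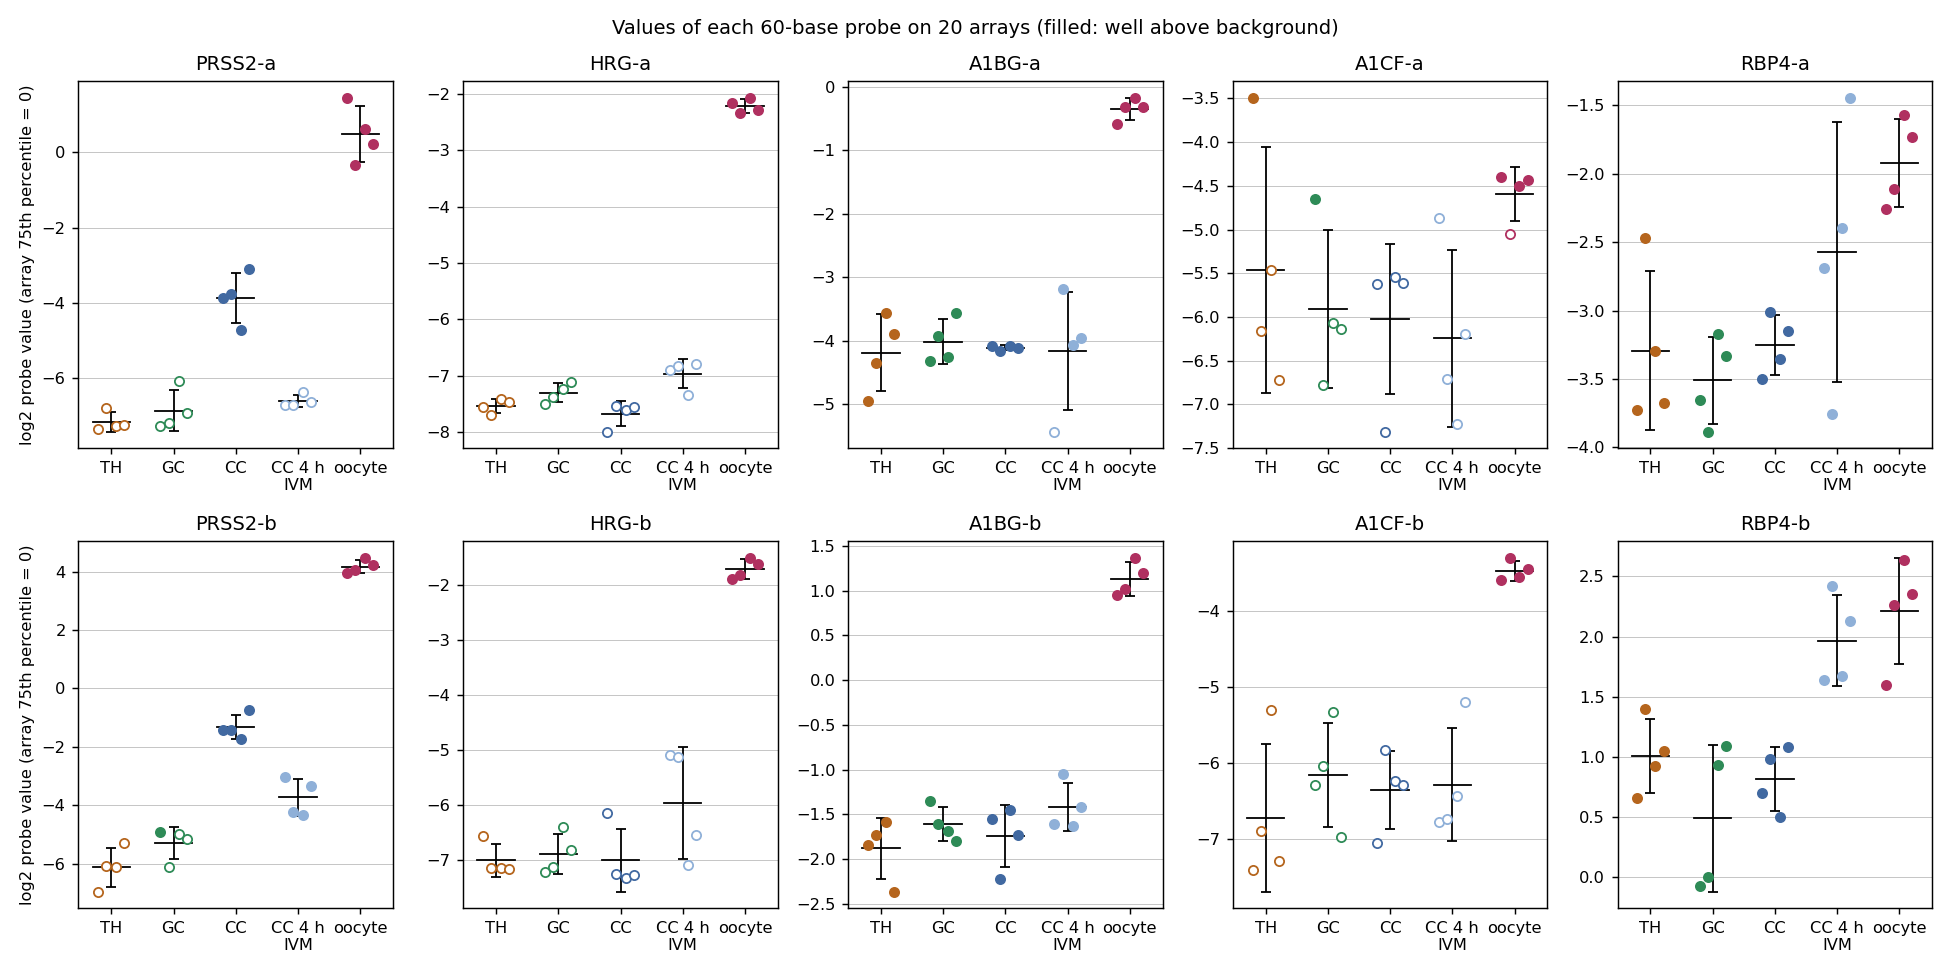
Each panel plots the log2 value of 1 probe (y axis, array 75th percentile at 0) on the 20 arrays in their 5 groups. Filled points were well above background, and bars are the group mean and SD (n = 4). Open points in all groups but oocytes mark HRG and A1CF-b, and the PRSS2 panels show the steps from oocyte to CC to CC after IVM.

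A1BG, the plasma protein of the immunoglobulin superfamily, was above background on all 20 arrays. Its gene values were 0.19, 0.35, 0.60 and 0.44 in oocytes. They were -3.40, -3.05, -2.57 and -3.13 in TH, -2.84, -2.77, -2.97 and -2.68 in GC and -2.83, -3.20, -2.76 and -2.92 in CC. In CC after IVM they were -3.52, -2.12, -2.85 and -2.69, the widest spread of the groups. The 4 somatic groups overlapped each other, and oocytes stood apart from all of them. Ratios of oocytes to TH, GC, CC and CC after IVM were 10.8, 9.26, 10.0 and 9.13, so the gap was nearly the same for each. The 2 probes gave an oocyte minus somatic difference of 3.77 (A1BG-a) and 2.88 (A1BG-b). On replicate 1 of CC after IVM, A1BG-a read -5.44 and was not above background, while A1BG-b read -1.60, in the range of the others. No somatic comparison passed the threshold for A1BG, and the 95% intervals ran from -0.60 to 0.16 for TH minus GC, from -0.49 to 0.27 for TH minus CC, from -0.27 to 0.49 for GC minus CC and from -0.51 to 0.77 for IVM.

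A1CF, the RNA-binding partner of APOBEC1, gave weak signals, above background mainly in oocytes. Its gene values were -4.00, -4.18, -4.03 and -3.94 in oocytes. They were -5.45, -6.53, -5.39 and -7.00 in TH, -5.47, -6.41, -5.70 and -6.56 in GC, -6.34, -6.57, -5.89 and -5.95 in CC and -5.82, -6.72, -6.83 and -5.69 in CC after IVM. Oocytes were above the highest of the other arrays, and among the others 1 TH array and 1 GC array, replicate 1 in each, were above background, through A1CF-a alone. The ratio of oocytes to TH was 4.14 and to GC 3.98, with 1 of 4 arrays measured in each of these groups, and by the gene value it was at least 2.59 against CC and at least 1.63 against CC after IVM. By A1CF-a alone these bounds were 1.73 and 1.11, and its oocyte values overlapped those of CC after IVM. By A1CF-b alone they were 3.81 and 2.40.

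The A1CF probes differed. A1CF-b was above background in oocytes only, at -3.60, -3.31, -3.56 and -3.45. A1CF-a read -4.40, -5.06, -4.50 and -4.43 in oocytes, where replicate 2 was not above background, and -3.49 in TH replicate 1, above every oocyte array by that probe. The oocyte minus somatic difference was 2.93 by A1CF-b and 1.20 by A1CF-a, and with a background correction by a normal-exponential model it was -0.27, so the direction for A1CF depends on how background was removed. No somatic comparison passed the threshold for A1CF, and the 95% intervals ran from -0.79 to 0.67 for TH minus GC, from -0.63 to 0.83 for TH minus CC, from -0.58 to 0.88 for GC minus CC and from -0.77 to 0.61 for IVM.

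RBP4, the carrier of retinol, was above background on all 20 arrays and had the smallest gap between oocytes and the other cells. Its gene values were -0.33, 0.07, 0.54 and 0.31 in oocytes and -0.53, -0.67, -0.36 and 0.34 in CC after IVM, so these groups overlapped. In CC they were -1.40, -1.01, -1.42 and -1.04, in TH they were -1.54, -0.53, -1.19 and -1.31, and in GC they were -1.87, -1.94, -1.12 and -1.12. These 3 groups overlapped each other and lay below the oocyte arrays. The oocyte level was 2.58-fold that of CC, 2.45-fold that of TH, 3.16-fold that of GC and 1.37-fold that of CC after IVM.

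RBP4 was higher in CC after IVM than before by 0.92 ± 0.25 (SE) on the log2 scale, 1.89-fold (limma adjusted p = 0.0189, 95% interval 0.35 to 1.48), a direction in which 30.3% of all genes were called, or 21.8% of the genes above background on at least 3 arrays of CC or of CC after IVM. The arrays of the groups did not overlap. With quantile normalization, which moved the median of all genes from 0.37 to 0.01, the difference was 0.86 (limma adjusted p = 0.032). The call was lost without CC replicate 1 (limma adjusted p = 0.0531) and without CC replicate 3 (limma adjusted p = 0.0542). By RBP4-b, which read 1.64, 2.42, 1.67 and 2.13 after IVM against 0.70, 0.98, 0.50 and 1.08 before, the difference was 1.15 (limma adjusted p = 0.00765 over all probes). By RBP4-a, which read -2.69, -3.75, -2.40 and -1.44 against -3.50, -3.01, -3.35 and -3.15, it was 0.68 (limma adjusted p = 0.223). By RBP4-a the groups overlapped, since replicate 2 after IVM lay below all CC arrays. Among TH, GC and CC, RBP4 did not pass the threshold, and the 95% intervals ran from -0.20 to 0.94 for TH minus GC, from -0.49 to 0.64 for TH minus CC and from -0.86 to 0.27 for GC minus CC.

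**Figure D3:**
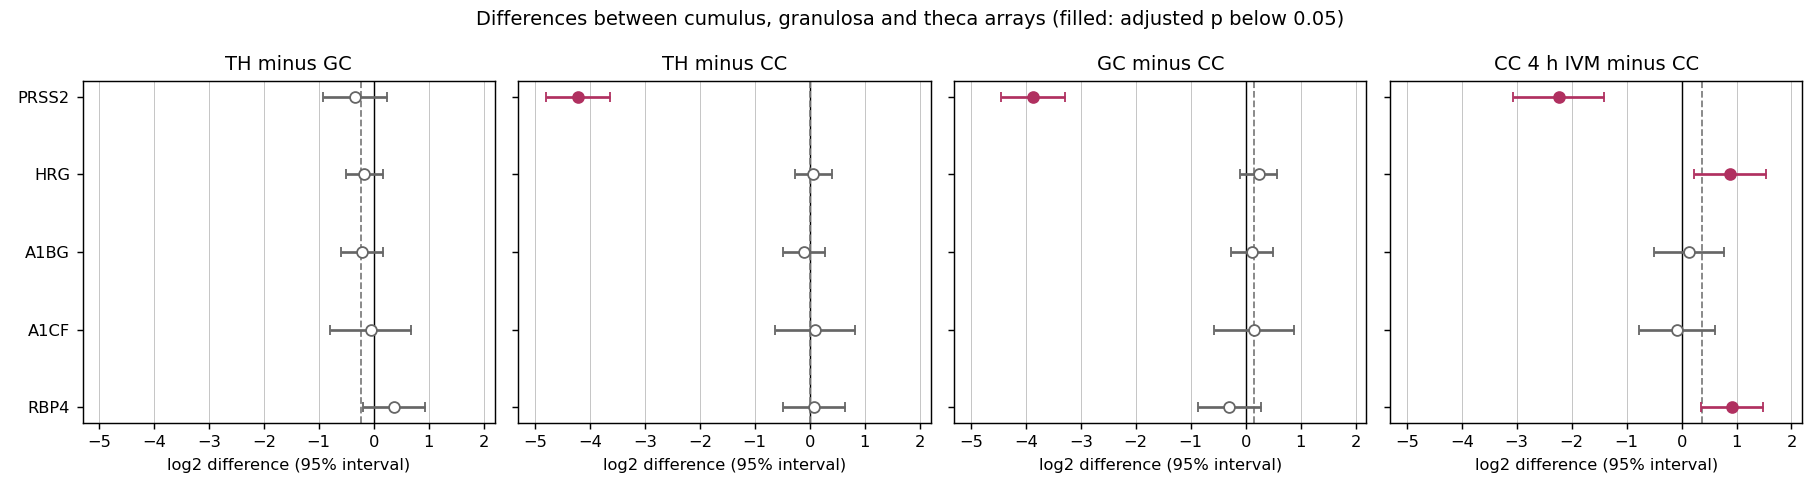
Each panel plots the log2 difference (x axis) of the 5 genes (y axis) for 1 comparison of somatic groups, with its 95% interval. Filled points passed an adjusted p of 0.05 in limma, and the dashed line is the median over all genes. PRSS2 lies at -4.22, -3.87 and -2.23 in the last 3 panels, and RBP4 and HRG passed the threshold only after IVM, HRG with both groups in the background.

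Over the 4 somatic comparisons, the 5 genes thus gave 0 calls for TH minus GC, 1 for TH minus CC and 1 for GC minus CC, both PRSS2, and 3 for IVM, which were PRSS2 lower, RBP4 higher and HRG with both groups in the background. The shares of all genes called in either direction were 26.3%, 31.8%, 9.88% and 45.8%.

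The genes known to work with each of the 5 were taken from lists of textbook biology, 129 genes on the array besides the 5. These lists were set with earlier results of these data known, and the genes named below include those of the greatest rise and fall. Their p-values therefore describe these genes and are no independent test. In oocytes against the somatic mean, 40 of the 129 were higher and 47 were lower, where 32.9% and 38.3% of all genes were called. The median difference was -0.50 over the 129 and -0.52 over all genes. Values below are log2 differences of oocytes minus that mean, with SE and limma adjusted p where a gene is described. Where few arrays of a group were above background the difference rests in part on background readings, and where none were, lower bounds on the ratio are given in its place.

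Of 35 liver plasma protein genes, 12 were higher in oocytes and 15 lower, with a median of -0.57. Plasminogen (PLG), the zymogen of plasmin, was higher by 6.99 ± 0.33 (limma adjusted p = 2.16e-11), at least 33.6-fold against GC. Its values were 0.05, 0.03, -0.14 and 0.22 in oocytes, and it was above background on 2 TH arrays, 1 CC array and no GC array. CPB2, a plasma carboxypeptidase that slows fibrin breakdown, was higher (limma adjusted p = 8.87e-13), at least 23.0-fold against GC and 29.9-fold against CC. APOA1, the main protein of high-density lipoprotein, was lower (-9.02). The protease inhibitor A2M and complement C3 were also lower and were above background on no oocyte array, A2M being at least 353-fold higher in TH than in oocytes and C3 at least 11.9-fold higher in CC. Albumin (ALB), the defining plasma protein of hepatocytes, was above background on 1 of 4 oocyte arrays, 1 TH array and 1 array of CC after IVM, with a difference of 0.16 (limma adjusted p = 0.679).

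Of 6 hepatocyte markers (ALB, APOB, SERPINA1, TTR, FGB and AHSG), 4 were above background on at least 3 oocyte arrays, and the log2 of their summed level ran from -1.93 to -1.65 in oocytes, from -1.95 to -0.97 in TH, from -3.30 to -1.54 in GC, from -2.07 to -1.85 in CC and from 0.19 to 3.01 in CC after IVM. The summed level in oocytes thus lay within the range of TH. Of 19 genes of hepatocyte regulators and enzymes, 8 were higher in oocytes and 4 lower, with a median of 0.30. CPS1, which starts the urea cycle, was higher by 6.23 and TAT, which breaks down tyrosine, by 5.40, whereas the nuclear receptor NR5A2 was lower (-5.45), as were FOXA2 (-1.86) and PCK1, which was above background on no oocyte array and at least 1.31-fold higher in CC.

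**Figure D4:**
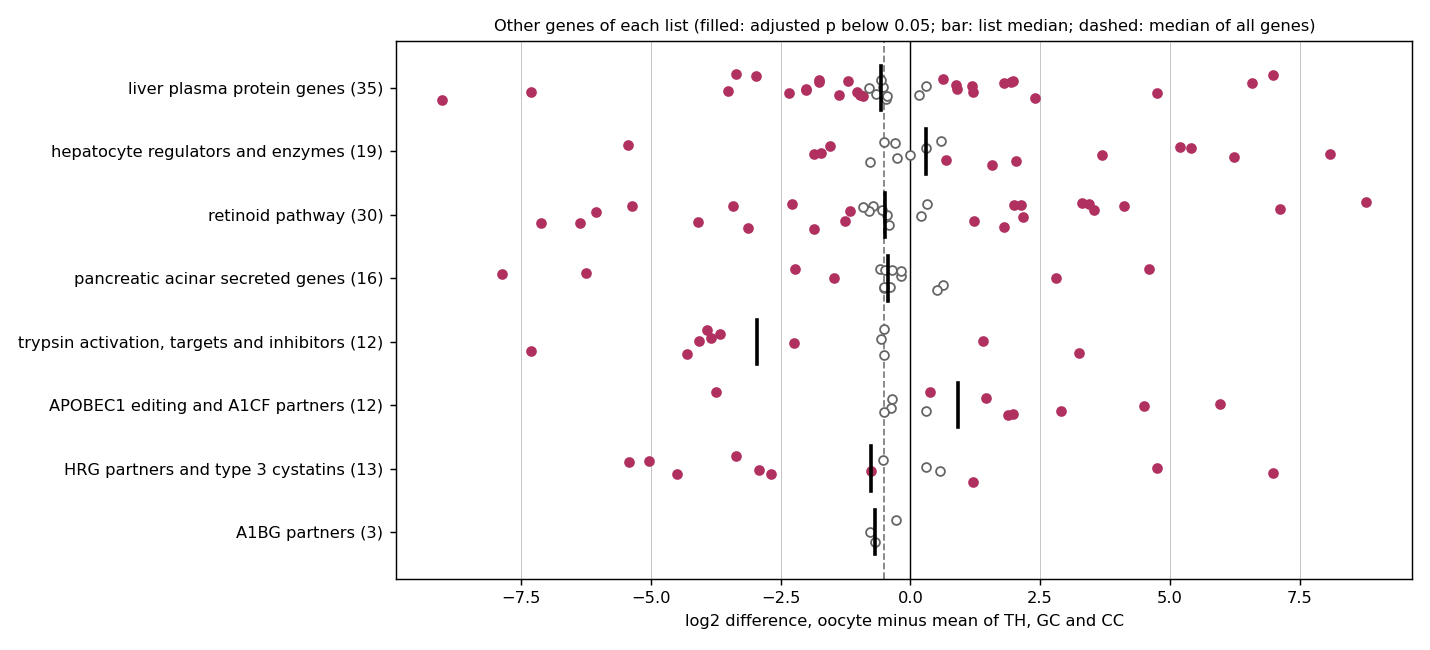
Each row plots the log2 difference of oocytes minus the mean of the TH, GC and CC groups (x axis) for the other genes of 1 list, with the number of genes measured in parentheses. Filled points passed an adjusted p of 0.05 in limma, the short bar is the median of the list, and the dashed line is the median of all genes at -0.52. Points reach beyond 6 on both sides in the liver plasma protein and retinoid lists, and list medians run from -2.96 for trypsin activation, targets and inhibitors to 0.92 for APOBEC1 editing and A1CF partners.

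Around PRSS2, of 16 other acinar genes 2 were higher in oocytes and 4 lower, with a median of -0.44. The gene of colipase (CLPS), the cofactor of pancreatic lipase, was higher by 4.59 and that of carboxypeptidase A1 (CPA1) by 2.81, while the phospholipase PLA2G1B (-6.25) was lower. The amylase AMY2B and the zymogen granule protein GP2 were lower too and above background on no oocyte array, AMY2B being at least 44.9-fold higher in TH, 68.8-fold in GC and 51.6-fold in CC, and GP2 at least 2.00-fold higher in CC. The related trypsinogen gene PRSS1 was above background on 3 oocyte arrays and on all 16 others, with a difference of -0.35 (limma adjusted p = 0.155). Of the 4 acinar markers CPA1, PNLIP, CTRB1 and CEL, only CPA1 and CTRB1 were above background on any array. Of 12 genes of trypsin activation, targets and inhibitors, 2 were higher in oocytes and 7 lower, with a median of -2.96. F2RL1, the receptor that trypsin cleaves and activates, was higher (limma adjusted p = 1.28e-10), above background on all oocyte arrays and no TH, GC or CC array, at least 3.08-fold, 2.58-fold and 3.35-fold. In CC it rose after IVM by at least 6.04-fold (limma adjusted p = 0.000224), from 0 to 4 arrays above background, in the same comparison in which PRSS2 fell. TMPRSS15, the enteropeptidase that activates trypsinogens, was lower in oocytes and above background on none of their arrays, being at least 5.41-fold higher in TH, F2R, the thrombin receptor, was lower (-4.07), and the trypsin inhibitor SPINK1 was above background on 1 oocyte array.

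Around HRG, of 13 genes of its partners and of cystatins 3 were higher in oocytes and 7 lower, with a median of -0.76. The 3 were PLG, KNG1 and the fibrinogen chain FGG, which was above background on 3 oocyte arrays and no TH, GC or CC array, too near the background for a bound. Among the 7 were the thrombospondins THBS1 (-5.04) and THBS2 (-4.50) and the heparanase HPSE, above background on no oocyte array and at least 72.8-fold higher in CC. HRG belongs to the type 3 cystatins, a family whose genes KNG1 (kininogen), FETUB (fetuin B) and AHSG (fetuin A) lie next to it on chromosome 1 in these annotations, 6179, 15450 and 66376 bases away. KNG1 read -2.65, -2.63, -2.35 and -2.78 in oocytes and was above background on no other array, at least 6.42-fold, 5.38-fold and 7.00-fold higher than TH, GC and CC, a detection pattern it shared with HRG. FETUB was above background on 2 oocyte arrays, and its difference was 0.31 ± 0.23 (limma adjusted p = 0.233). AHSG was lower in oocytes, at -6.42, -6.34, -6.38 and -5.99 against -2.31, -2.35, -2.26 and -2.42 in CC, with a difference of -3.36 ± 0.16 (limma adjusted p = 3.37e-11).

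The 4 neighbouring cystatin genes therefore divided. KNG1 and HRG were measured in oocytes and in no somatic group, while FETUB and AHSG were highest in CC after IVM. FETUB read -4.15, -3.10, -3.16 and -2.96 there against no CC array above background, at least 4.20-fold higher (limma adjusted p = 9.95e-06). AHSG read -0.10, 2.97, 1.56 and 1.16, a difference of 3.73 (limma adjusted p = 0.000563). Among the 7 genes placed within 100 kb of HRG, 3 were higher and 3 lower in oocytes.

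**Figure D5:**
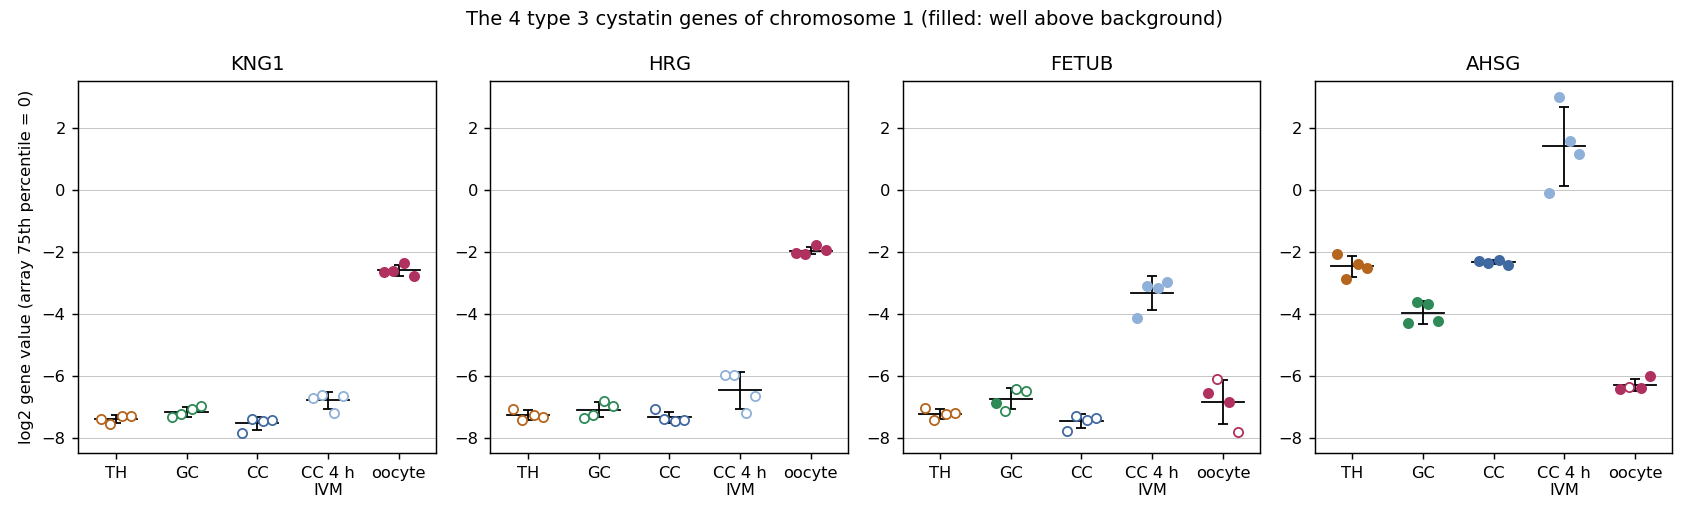
Each panel plots the log2 gene value (y axis, array 75th percentile at 0) of 1 type 3 cystatin gene on the 20 arrays in their 5 groups. Filled points were well above background, and bars are the group mean and SD (n = 4). KNG1 and HRG have filled points in oocytes only, and FETUB and AHSG are highest in CC after IVM.

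Around A1BG, the cysteine-rich secretory proteins CRISP1, CRISP2 and CRISP3, of which CRISP3 is known to bind A1BG in plasma, were 3 of 3 on the array, with none above background on 3 arrays of any group and 0 calls in either direction. Around A1CF, of 12 genes of APOBEC1 editing and A1CF partners 7 were higher in oocytes and 1 lower, with a median of 0.92. APOBEC1 itself was above background on none of the 20 arrays, and its difference was -0.50 (limma adjusted p = 0.143). APOB, whose messenger the pair edits, was above background on all 4 oocyte arrays, at -5.14, -4.90, -5.31 and -5.72, and on 1 of the other 16, at least 1.01-fold higher than TH and 1.10-fold than CC. The RNA-binding proteins RBM46 (5.96), DND1 (4.49) and CELF2 (2.90) were the 3 with the greatest rise, and HNRNPAB (-3.75) was lower. RBM46, like PRSS2, was above background on all CC arrays and on no TH array, and it was lower in CC after IVM (-3.96, limma adjusted p = 1.18e-05). Unlike PRSS2, it was above background on 3 GC arrays and on 1 array of CC after IVM, against 1 and 4 for PRSS2.

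Around RBP4, of 30 genes of the retinoid pathway 11 were higher in oocytes and 11 lower, with a median of -0.49. STRA6, the membrane receptor for RBP4, was lower in oocytes, at 0.62, 0.86, 1.10 and 0.85 against 8.34, 8.16, 8.20 and 8.21 in CC, with a difference of -5.37 ± 0.25 (limma adjusted p = 2.16e-11). Its level in CC after IVM, 7.78, 7.96, 8.15 and 8.41, overlapped that of CC. Transthyretin (TTR), the partner of RBP4 in plasma, was higher in oocytes by 1.80 ± 0.58 (limma adjusted p = 0.0116), at -2.42, -2.29, -2.35 and -2.23, which lay within the range of the TH arrays, -3.79 to -1.69.

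LRP2, the receptor megalin that takes up RBP4, read 1.58, 1.71, 1.91 and 1.75 in oocytes and was above background on no other array, at least 131-fold, 109-fold and 142-fold higher than TH, GC and CC. LRAT, which esterifies retinol, and CYP26A1, which clears retinoic acid, were higher too. LRAT was above background on no TH, GC or CC array, at least 4.46-fold, 3.74-fold and 4.87-fold, and CYP26A1 was above background on 1 GC array and at least 33.6-fold higher than TH and 36.6-fold than CC. SCARB1, a lipoprotein and carotenoid receptor (-7.13), was lower, and so was the retinal reductase DHRS3, above background on no oocyte array and at least 20.5-fold higher in CC. The named genes of retinoid uptake and turnover thus moved in both directions.

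In the somatic comparisons, 24 of the 129 genes were higher and 19 lower in TH than in GC, 24 and 24 in TH than in CC, and 4 and 9 in GC than in CC, where 11.8% and 14.5%, 14.4% and 17.4%, and 4.61% and 5.27% of all genes were called. After IVM, 58 were higher and 12 lower, but of the 58 only 23 were among the 72 genes above background on at least 3 arrays of CC or of CC after IVM, and 30 were among the 35 that were above background on none. With quantile normalization 20 were higher and 13 lower. The split of all genes moved with it, from 6824 higher and 3505 lower to 2754 and 3623.

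The place of each gene was also read from the annotation in the files. Of 12 genes and transcripts within 100 kb of PRSS2, 10 were lower in oocytes and 0 higher, with a median of -3.30, where 38.3% and 32.9% of all genes were called. These transcripts overlap in part, and 9 of the 10 had their highest mean in TH. The log2 of the summed level of 3 leukocyte markers (PTPRC, CD68 and CD3E) ran from -1.05 to 0.35 in TH, -3.29 to -1.67 in GC, -3.64 to -2.25 in CC, -1.04 to -0.04 in CC after IVM and -0.16 to 0.23 in oocytes. The 3 markers differed in pattern. PTPRC, the marker of all leukocytes, was above background on the 4 TH arrays and on no other. CD3E was above background on 4 TH and 4 oocyte arrays, and its mean was highest in oocytes (-0.07, against -1.04 in TH). CD68 had its highest mean in CC after IVM (-0.74, against -2.16 in TH). The part of leukocytes in these neighbours was not tested. The neighbours include T-cell receptor beta variable genes (TRBV29-1 and TRBV30), among which trypsinogen genes are known to lie, and which did not pass the threshold themselves. Around A1BG, 1 of 10 was higher and 6 were lower. Around A1CF there was 1 transcript, higher and above background on oocyte arrays only. Around RBP4, 3 of 6 were higher and 1 was lower, and PDE6C, a cone phosphodiesterase gene 9281 bases away, was higher by 10.06 ± 0.42 (limma adjusted p = 5.35e-12), at 4.19, 4.13, 4.30 and 4.17 in oocytes, and above background on 3 TH arrays, 1 GC array and 1 CC array.

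Over the 20 arrays, the gene values of the 5 varied together to different degrees, which describes 5 groups more than 20 separate points, since the arrays of a group share their cell type and their label. The Pearson correlation ran from 0.54 for A1CF with RBP4 to 0.96 for HRG with A1BG, and it was 0.87 for PRSS2 with HRG. Among 13154 named genes above background on at least 3 oocyte arrays, those most like PRSS2 were PLS1 (r = 0.979), SDE2 (0.978) and AMPH (0.975), each with a mean in CC between the means of GC and oocytes. Those most like HRG were TMEM169 (0.997), MRPS31 (0.995) and ZNF804B (0.995). Those most like A1BG were UBE2Q1 (0.989), TFE3 (0.988) and GIT2 (0.987), and those most like A1CF were PIAS1 (0.939), TMEM171 (0.936) and RTFDC1 (0.932). For RBP4 the values were lower, with C2orf69 (0.905), PLK3 (0.898) and MAP2K1 (0.897), each with a mean after IVM above that of CC. All these genes were picked by their correlation, so the order of group means that they share with PRSS2 or RBP4 follows from the search.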

How the data were processed

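RNA of 4 samples each of TH, GC, CC, CC after 4 h of IVM and oocytes was hybridised by the authors, as Cy3-labelled cRNA, to 1-colour Agilent bovine arrays, and groups were taken from the sample titles. The deposited scanner files (Feature Extraction 10.7.3.1, per the labels) give intensity per spot, with background subtracted by the scanner software and no normalization between arrays, and say by 0 or 1 whether a signal cleared the background. The authors also deposited a table of log2 values, which equalled log2 of the median signal minus the array median. It served as an alternative, and how it was made is otherwise not given in the sources used here.

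From 62844 spots, control spots left out, log2(processed signal) minus the 75th percentile of the 61325 probes of each array was taken, and spots of a gene were combined by their median, as in the methods. Of 9779 probes without a gene name, 734 were named through RefSeq accessions. limma 3.58.1 (R 4.3.3) was fitted to all 22550 genes, over 16 arrays (TH, GC, CC, oocytes), and separately over the 8 of CC with and without IVM, p-values being adjusted by Benjamini and Hochberg and called at 0.05. The code was checked on simulated data. Tables and plots were made with Python 3.11.15. The arrays stood on 3 slides, replicates 1 and 2 of TH, GC, CC and oocytes on the first, replicates 3 and 4 on the second, and all CC after IVM on the last. The number of arrays, 4 per group, limits the precision.

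The deviations of same-numbered samples from their group means correlated at 0.196 to 0.442 for TH with GC. The correlation was 0.021 to 0.191 for GC with CC and -0.223 to -0.026 for CC with and without IVM. In each remaining pair of groups it took both signs, as for TH with CC (-0.030 to 0.342). Same-numbered TH and GC samples also shared a slide, and samples of unlike number were not compared. Pairing and slide therefore cannot be told apart here.

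The 5 genes and the gene lists were chosen with earlier results of these data known. From the lists, PRSS1, PRSS3, SPINK1, TTR, STRA6, LRAT, APOBEC1, APOB, RBM47, KNG1, AHSG, FETUB, PLG and ALB were named where measured, with up to 3 genes of the greatest rise and 3 of the greatest fall per list among those above background on at least 3 arrays of the brighter side. Of these, 2 are not reported here. PRSS3, RBM47 and 11 other list genes were not found by name on the array. Alternatives covered normalization, background correction, the deposited table, probes, filters, blocks, weights, the methods' analysis of variance with Tukey's test and leaving out each array.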

Additional observations from a re-analysis of the deposited data

Results flagged for a closer look

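Of 85 sets of 4 arrays examined for a single distant value by Dixon's ratio, 5 held one, where chance gives about 1 in 20. They are all probe values at or near the background. For HRG-a, CC replicate 1 read -7.99 against -7.60, -7.55 and -7.53, and for HRG-b, CC replicate 1 read -6.14 against -7.33, -7.27 and -7.25. For HRG-b, TH replicate 1 read -6.56 against -7.16, -7.14 and -7.14. None of these 12 values was above background. For A1CF-a, CC replicate 2 read -7.31 against -5.62, -5.61 and -5.55, none above background. For A1CF-a, oocyte replicate 2 read -5.06 and was not above background, against -4.50, -4.43 and -4.40 on oocyte arrays that were. Oocyte replicate 2 was also the oocyte array with the lowest share of probes above background, 49.3%, and its part in that value was not tested.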

How the results depend on the processing

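PRSS2 kept its calls in all alternatives run, 36 for TH minus CC (-5.17 to -1.46), 36 for GC minus CC (-4.89 to -1.10) and 25 for IVM (-2.73 to -0.50). RBP4 kept its call after IVM in 20 of 23 (0.48 to 1.15) and HRG in 13 of 23. Of 490 alternative values of the uncalled differences, 50 took the other sign and 3 passed the threshold. A1CF after IVM came out at 0.58 with normexp background correction (limma adjusted p = 0.000997) and 0.32 with the deposited table (limma adjusted p = 0.0275). Causes were not tested.

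The oocyte minus somatic differences were positive in all alternatives but 1. With normexp, which moved the median of all genes from -0.52 to -1.30, PRSS2 was 4.98, HRG 1.43, A1BG 2.44 and A1CF -0.27. With the deposited table PRSS2 was 6.15, HRG 2.75 and A1CF 0.77, and with the percentile taken over probes above background on all arrays HRG was 5.07. The brightest probe gave 8.42 for PRSS2, 2.88 for A1BG and 1.20 for A1CF. Single spots, an alternative chosen after seeing the data, gave 6.44, 6.68, 8.42 and 8.77 for PRSS2, 3.77 and 2.88 for A1BG, and 2.93 and 1.20 for A1CF.

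Of the 5 genes, 5 passed after IVM with normexp and 1 to 3 when 1 array was left out, the lowest without CC replicate 1 or CC replicate 3. For the list genes, the count higher in oocytes was 25 and the count lower 96 with normexp, and 86 were lower with the deposited table. In GC against CC, the counts higher and lower were 12 and 16 with array weights and 1 and 2 within the first slide. There, 15 were lower with quantile normalization, and the count higher was 10 with the percentile over probes above background, 8 with the filter on dim genes, 9 with the methods' analysis of variance and 2 within the second slide. It ran from 2 to 7 with 1 array left out, being 2 without CC replicate 1, CC replicate 2 or GC replicate 3 and 7 without TH replicate 4. Within the first slide TH against GC gave 12 and 12, and TH against CC 11 and 14. The count higher after IVM was 20 with quantile normalization, 98 with normexp, 37 with the filter on dim genes and 37 with all 20 arrays fitted together. It ran from 24 to 61 with 1 array left out, being 24 without CC replicate 1, 30 without CC replicate 3 and 31 without replicate 4 of CC after IVM. With the replicate number as a block, the count higher was 7 in GC against CC and 35 after IVM, and the block changed no call of the 5 genes. Depth is limited by signal over background, which HRG and A1CF did not clear on most somatic arrays.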

Other observations

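The liver protein gene SERPINA1, an inhibitor of serine proteases, was above background on all 4 arrays of CC after IVM and on no array of the other groups, at least 1.23-fold higher than CC (limma adjusted p = 0.000714). With FETUB and AHSG it was a further hepatocyte secretory gene that was higher in CC after IVM, where slide and IVM cannot be told apart. Among the liver plasma protein genes, 14 were above background on at least 3 arrays of CC or of CC after IVM. Of these 14, 6 were higher after IVM and 1 was lower, where 21.8% of all genes so measured were called higher. C2orf69, the gene nearest to RBP4 in pattern, had means of -6.63 in CC, -4.58 in CC after IVM and -4.08 in oocytes.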
